A study of Mus musculus with 20 samples.

Results

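The DNA methylation of 42 myeloid and haematopoietic progenitor genes was followed in the livers of male mice of the C57BL/6J strain by reduced representation bisulfite sequencing (RRBS). The genes were taken from a list of names and were 42 of the 20780 autosomal protein-coding genes of the annotation. The list was chosen with earlier results of these data known, so that shares called among the members are set beside those of all genes as values only. Their CpGs were read from 5 kb before the transcription start site (TSS) to the gene end, and 1690 of the 906622 autosomal CpGs with at least 10 reads in at least 3 libraries of each group lay there. The 20 libraries, all labelled WT and male, fell into 4 groups of 5. Con-d0 and Con-d21 were offspring of dams kept on a control diet without stress. AME-d0 and AME-d21 were offspring of dams given a Western diet from before mating together with stress late in pregnancy, the adverse maternal environment (AME). For AME-d21 the diet went on through lactation, while the AME-d0 pups were taken before it. The d0 pups were taken by C-section at term, whereas the d21 pups came from other dams that delivered naturally, were nursed by their dam and were fasted before collection, so that age, delivery, feeding and dam cannot be told apart between the ages. The labels do not say which dam or litter a liver came from, so that p-values measure the spread between these livers, of which some may be littermates.

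The fetal liver of the mouse makes blood. Haematopoietic stem and progenitor cells settle there before birth, and myeloid, erythroid and lymphoid precursors fill the space between the hepatoblasts until blood formation moves to the bone marrow. The regulators of the list, such as PU.1 (Spi1), the RUNX factors, C/EBPε (Cebpe) and GFI1, direct the commitment of progenitors to granulocytes and monocytes. Others are the surface proteins by which progenitors are sorted (CD34, KIT, FLT3), the serine proteases and peroxidase of the primary granules, and the parts of the phagocyte NADPH oxidase, which makes superoxide. The rest are leukocyte receptors and integrins, and the adaptors and cytoskeletal proteins behind them. Genes active in a cell usually have an unmethylated promoter, and many CpGs in the body of such a gene are methylated. In bulk liver DNA, a methylation level is a mean over the cells present, so that fewer cells of a type and a change within each cell cannot be told apart.

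RRBS reads the CpG-rich fragments left by the enzyme MspI, and bisulfite turns unmethylated cytosines into a base read as T, and every read over a CpG is thus scored as methylated or unmethylated. Reads summed over CpGs ranged from 23248139 to 45769589 per library, with a median of 7 to 13 at a CpG, and a depth of 10 reads was met by 831291 to 1211979 CpGs. AME-d21 replicate 4 stood apart: for every 100 autosomal reads it held 2.86 on the X chromosome, where the other 19 libraries held 1.39 to 1.53, and of every 1000000 reads 16.2 were on the Y short arm (168 to 216 in the others), although it is labelled male. AME-d0 replicates 1 and 3 had 30.1% and 29.3% of their autosomal reads methylated, below the other d0 libraries (34.4% to 37.9%) and the d21 libraries (38.9% to 41.6%). Counts of calls and the main differences between AME and Con that rest on these 3 libraries are given below also without them.

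Promoters (1 kb on either side of the TSS), gene bodies (from 1 kb after the TSS to the gene end) and upstream regions (5 kb to 1 kb before the TSS) were tested apart, each where at least 3 CpGs were kept. A promoter could be tested in 18 members, a gene body in 33 and an upstream region in 15. Of the members, 5 had no region tested: Ptprc (CD45), Cd53, Tyrobp and Lst1 held no CpG that passed the coverage minimum, and Arhgdib held 1. The upstream region of Elane lies over the end of Prtn3, and 18 CpGs belonged to both. Methylation is given as the percent of reads methylated over a region (mean ± SD, n = 5 livers), and differences of it (Δme) in percentage points. Regions were tested with limma on the log2 ratio of methylated to unmethylated reads, with 1 read added to each, in which positive differences mean more methylation. A region was called where Δme was at least 10 points and the p, adjusted by Benjamini-Hochberg over every gene tested, was under 0.05.

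Among called CpGs outside exons, those with the largest differences between Con-d0 and Con-d21 are shown with their surroundings. Elane and Lyl1 were left out, and no gene was shown more than once. The windows are read on the strand of the gene from the RefSeq GRCm38 (mm10) sequence, with the CpGs that were measured in capitals. The Dok3 window (chr13:55528287-55528438, minus strand) lies in an intron and its central CpG, 934 bp after the TSS, went from 18.3% ± 7.0 to 85.0% ± 6.8. That of Cd48 (chr1:171681927-171682008, plus strand) ends at the TSS, lies also within the annotation of A630035G10Rik, and holds a CpG 7 bp before the TSS with 17.7% ± 9.0 and 82.0% ± 4.9. The windows of Prtn3 (chr10:79882426-79882577, plus strand), Flt3 (chr5:147366684-147366835, minus strand), Dok2 (chr14:70775849-70775983, plus strand) and Inpp5d (chr1:87658065-87658216, plus strand) are intronic and carry CpGs that rose. The intronic window of Runx3 (chr4:135155505-135155656, plus strand) is shown for the opposite direction, with a central CpG at 58.3% ± 9.4 in Con-d0 and 7.35% ± 3.1 in Con-d21.
Dok3: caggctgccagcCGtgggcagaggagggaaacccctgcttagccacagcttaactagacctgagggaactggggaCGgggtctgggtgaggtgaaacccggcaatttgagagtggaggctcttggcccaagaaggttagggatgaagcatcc
Cd48: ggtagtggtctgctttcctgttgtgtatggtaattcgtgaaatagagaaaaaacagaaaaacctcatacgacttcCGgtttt
Prtn3: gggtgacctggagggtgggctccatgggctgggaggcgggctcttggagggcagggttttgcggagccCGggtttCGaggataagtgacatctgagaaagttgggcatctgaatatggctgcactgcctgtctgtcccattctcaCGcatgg
Flt3: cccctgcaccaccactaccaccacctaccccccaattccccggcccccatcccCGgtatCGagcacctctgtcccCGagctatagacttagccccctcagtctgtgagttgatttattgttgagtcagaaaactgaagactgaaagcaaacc
Dok2: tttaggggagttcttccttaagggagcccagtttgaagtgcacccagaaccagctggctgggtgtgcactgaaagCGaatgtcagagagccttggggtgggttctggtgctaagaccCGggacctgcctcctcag
Inpp5d: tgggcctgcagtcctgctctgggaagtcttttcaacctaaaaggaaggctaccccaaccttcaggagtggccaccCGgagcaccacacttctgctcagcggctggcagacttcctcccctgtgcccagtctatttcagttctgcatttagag
Runx3: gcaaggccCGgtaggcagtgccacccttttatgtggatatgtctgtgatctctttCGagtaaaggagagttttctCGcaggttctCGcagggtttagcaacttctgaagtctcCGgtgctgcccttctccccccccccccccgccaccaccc

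Between Con-d0 and Con-d21, promoter methylation rose in 7 of the 18 members tested and fell in none. Over all genes, 3.83% of 12387 promoters were called higher and 1.05% lower at d21, and among the members 38.9% were higher. The median Δme was 0.83 points over the members and 0.02 points over all promoters. It depended on the start chosen, being 9.77 points over 23 members and 0.038 over all promoters when every TSS of a gene's protein-coding transcripts was used. The 7 promoters belong to 2 regulators (Lyl1, Cebpe), 2 receptors (Cd48, Csf3r), 1 subunit of the NADPH oxidase (Cyba) and 2 signalling genes (Dok3, Vav1).

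Dok3, which encodes an adaptor that restrains signals of immune receptors, had the largest difference. The gene lies at chr13:55523231-55529296 on the minus strand, and its promoter (8 CpGs, 154 to 433 reads per library) was 18.8%, 30.8%, 22.7%, 21.8% and 28.2% methylated in the Con-d0 livers and 82.0%, 77.1%, 80.3%, 70.2% and 81.6% in the Con-d21 livers. All 5 Con-d21 livers lay far above the Con-d0 livers, and the mean went from 24.4% ± 4.9 to 78.2% ± 4.9 (log2 difference 3.48 ± 0.28 SE, adjusted p = 7.98e-09). Cd48 (chr1:171682009-171705258, plus strand), a surface protein of the signalling lymphocyte activation family found on nearly all leukocytes, had 4 CpGs in its promoter. They were 22%, 36.0%, 28.1%, 28.3% and 21.9% methylated in Con-d0 and 78.2%, 67.7%, 64.9%, 69.2% and 76.8% in Con-d21, again without overlap (44.1 points, log2 difference 2.71 ± 0.30 SE, adjusted p = 8.21e-07). Only 38 to 128 reads per library stood behind these levels. The promoter of Csf3r (chr4:126024550-126044440, plus strand), which encodes the G-CSF receptor of neutrophil precursors, held 13.8%, 26.9%, 15%, 22.7% and 21.3% in Con-d0 and 54.0%, 53.0%, 58.2%, 53.8% and 46.2% in Con-d21, a rise of 33.1 points (log2 difference 2.19 ± 0.26 SE, adjusted p = 2.03e-06).

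The promoters of Lyl1 and Cyba were almost free of methylation at d0. Lyl1 encodes a basic helix-loop-helix factor of haematopoietic progenitors, and its promoter (16 CpGs) read 0.939%, 1.60%, 0.697%, 1.91% and 1.28% in Con-d0 against 27.9%, 15.5%, 22.9%, 24.9% and 32.3% in Con-d21 (log2 difference 4.32 ± 0.31 SE, adjusted p = 2.19e-09). Lyl1 (chr8:84701457-84704715, plus strand) lies within the annotation of Nfix, a gene of another family. Cyba, the membrane subunit p22phox of the oxidase, held 0.484% to 0.854% in the Con-d0 livers and 15.6%, 13.2%, 25.4%, 13.8% and 23.8% in the Con-d21 livers over 31 CpGs, where the model Gm20388 is annotated too (log2 difference 4.86 ± 0.32 SE, adjusted p = 4.53e-10). In either gene every Con-d21 liver was above every Con-d0 liver, and most reads were still unmethylated at d21.

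Vav1, a signalling protein of blood cells, was intermediate, with 9.75%, 13.7%, 14.8%, 17.1% and 14.7% in Con-d0 and 42.5%, 38.4%, 35.6%, 37.9% and 30.9% in Con-d21 over 9 promoter CpGs (log2 difference 1.85 ± 0.28 SE, adjusted p = 4.52e-05). Cebpe, the factor of late granulocyte maturation, had the highest promoter level at birth. It read 63.0%, 70.5%, 70.3%, 68.9% and 65.1% in Con-d0 and 83.9%, 87.8%, 89.1%, 85.5% and 90.7% in Con-d21 (log2 difference 1.74 ± 0.24 SE, adjusted p = 1.28e-05). The promoter of Ncf4, which encodes the oxidase subunit p40phox, had 3 CpGs and was not called in the controls: it held 60.6% ± 9.9 and 74.3% ± 6.0, its livers overlapped, and the adjusted p was 0.0519.

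**Figure D1:**
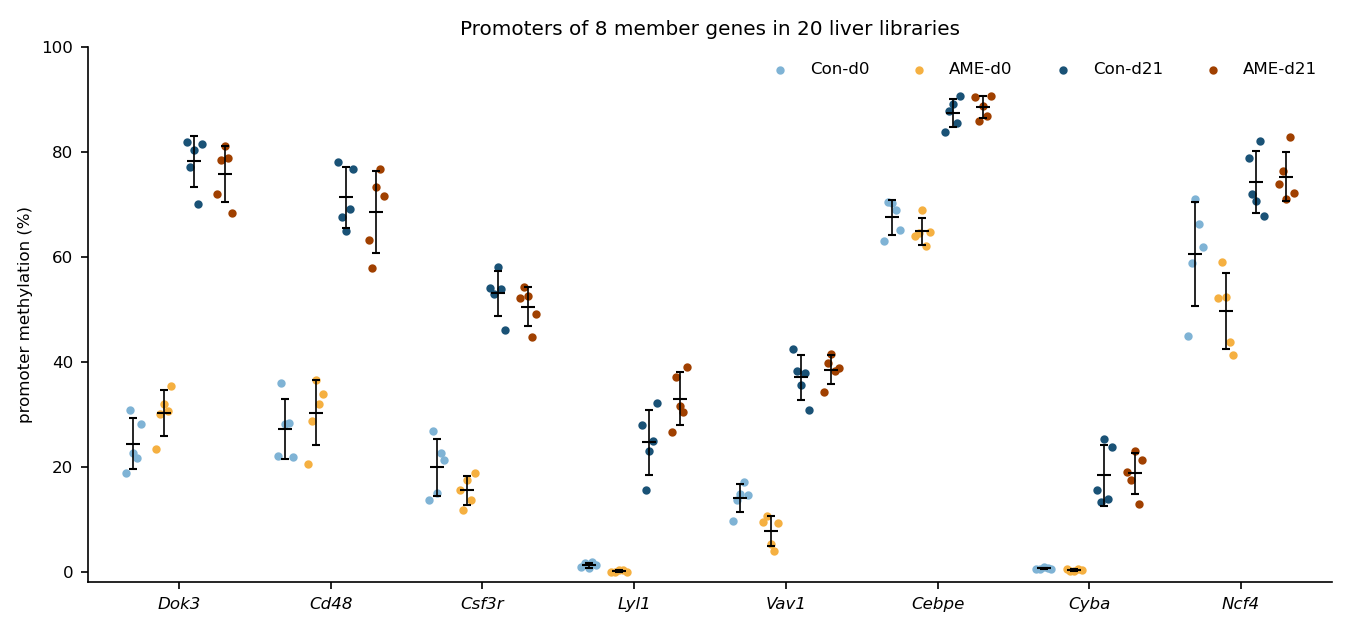
Promoter methylation (y axis, percent of reads) of the 8 member promoters with a group mean of at least 10%, in order of the difference between Con-d21 and Con-d0. Each point is 1 liver and bars are the mean ± SD of 5. The d21 points lie above the d0 points in 7 of the 8 genes, while the Con-d0 livers of Ncf4 reach into the range of Con-d21.

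The other 10 promoters were near 0 at either age, with no group mean above 1.34%. They belong to Gfi1 (0.374% in Con-d0, 1.34% in Con-d21), Prtn3 (0.138%, 0.834%), Kit (0.146%, 0.598%), Myb (0.128%, 0.528%), Ikzf1 (0.323%, 0.626%), Flt3 (0.155%, 0.413%), Cd34 (0.545%, 0.791%), Meis1 (0.172%, 0.207%), Lcp1 (0.197%, 0.223%) and Dok2 (0.0825%, 0.0907%). The differences of Gfi1, Prtn3, Kit and Myb passed the adjusted p but were each under 1 point. When promoters were split by their observed over expected CpG ratio at 0.6, a split chosen after these values were seen, the 7 called members lay among the 11 members under 0.6 (63.6% of them, against 8.02% of 5564 such promoters over all genes). None of the 7 members at or above 0.6 was called, where 0.41% of 6823 promoters were.

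In the gene bodies of the controls, 17 of 33 were called higher at d21 (51.5%) and 1 lower (3.03%), where over all genes 25.9% of 12247 gene bodies were higher and 3.1% lower. The median Δme was 12.1 points over the members and 6.28 points over all gene bodies. The median member gene body of a library was 53.2% to 65.5% methylated at d0, lowest in AME-d0 replicate 1, and 71.9% to 76.6% at d21.

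The granule enzymes rose together: all 3 with a tested gene body were called. Prtn3, the serine protease proteinase 3 of neutrophil granules, had the largest difference of the 33 member gene bodies in the controls. Its 18 CpGs read 22.1%, 20%, 21.4%, 21.3% and 21.6% in Con-d0 and 60.2%, 61.0%, 62.9%, 60.1% and 62.9% in Con-d21 (log2 difference 2.55 ± 0.13 SE, adjusted p = 1.4e-11). Mpo, myeloperoxidase, went from 61.9% ± 4.3 to 77.2% ± 3.4 (adjusted p = 1.45e-05) and Ctsg, the protease cathepsin G, from 67.7% ± 8.5 to 80.0% ± 4.2 (adjusted p = 0.00619). The call for Ctsg rested in part on Con-d0 replicate 3, since Δme was 8.74 points without it, and an unweighted mean over CpGs ended the call in the controls (9.29 points, adjusted p = 0.126) and in AME (10.8 points, adjusted p = 0.0735). The Prtn3 promoter, taken at the start of the gene record, was near 0 at either age, unlike its gene body. When every TSS of its protein-coding transcripts was used, the Prtn3 promoter was called higher at d21.

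The surface proteins of progenitors were also called in all 3 gene bodies. Flt3, the receptor for FLT3 ligand on early progenitors, read 50.5%, 49.9%, 48.0%, 47.1% and 50.2% in Con-d0 and 70.9%, 69.1%, 68.7%, 68.3% and 72.0% in Con-d21 over 29 CpGs (log2 difference 1.26 ± 0.10 SE, adjusted p = 1.18e-08). Kit, the stem cell factor receptor, rose from 70.7% ± 2.7 to 83.1% ± 2.05 (adjusted p = 1.1e-05), and Cd34, a sialomucin of progenitors and endothelium, from 74.7% ± 6.3 to 89.2% ± 2.3 (adjusted p = 0.00141). All 3 promoters were near 0, with 1.18% for Cd34 in AME-d21 the highest group mean.

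Among the oxidase genes, the gene bodies of Cyba, Rac2 and Ncf4 rose and that of Ncf1 did not. Cyba read 33.2%, 39.6%, 46.1%, 40.1% and 46.6% in Con-d0 and 66.1%, 69.7%, 70.6%, 71.0% and 64.0% in Con-d21 (log2 difference 1.61 ± 0.20 SE, adjusted p = 1.34e-06). Rac2, which activates the oxidase, read 28.9%, 29.2%, 24.3%, 22.5% and 28.2% against 46.6%, 49.8%, 49.5%, 51.4% and 50.1% (log2 difference 1.43 ± 0.12 SE, adjusted p = 1.94e-08). The Con-d0 and Con-d21 livers did not overlap in either gene. Ncf4 went from 73.5% ± 8.4 to 85.9% ± 3.1 (adjusted p = 0.00705), although its Con-d0 replicate 5, at 88.5%, was within the Con-d21 range. In Ncf1, the cytosolic subunit p47phox, the gene body held 22.8% ± 2.4 in Con-d0 and 16.6% ± 1.2 in Con-d21, a negative difference that passed the adjusted p (0.00401) but not 10 points.

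The regulators moved in different directions. Spi1, the gene of PU.1, read 54.1%, 44.4%, 59.0%, 53.7% and 50.8% in Con-d0 and 85.2%, 77.3%, 74.4%, 79.1% and 80.2% in Con-d21 over 8 CpGs (log2 difference 1.77 ± 0.20 SE, adjusted p = 3.76e-07). In Lyl1 the 7 CpGs of the gene body went from 1.25%, 2.33%, 3.16%, 1.37% and 5.21% to 50%, 34.8%, 42.2%, 45.2% and 36.0% (log2 difference 4.69 ± 0.30 SE, adjusted p = 4.89e-10), as its promoter had. Meis1, a homeobox factor of stem cells, rose from 24.9% ± 2.6 to 37.0% ± 2.55 over 71 CpGs (adjusted p = 0.000138). These 3 genes were the regulators called higher.

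Runx3, the RUNX factor of lymphocytes and dendritic cells, was the sole member gene body called lower. Its 200 CpGs read 24.2%, 28.6%, 26.1%, 26.7% and 26.0% in Con-d0 and 15.1%, 16.2%, 16.9%, 16% and 16.4% in Con-d21, without overlap (log2 difference -0.89 ± 0.12 SE, adjusted p = 2.26e-06). The Δme of -10.2 points was close to the minimum: it was -9.62 without Con-d0 replicate 2 and -9.92 without Con-d21 replicate 1, which ended the call. The gene body of Gfi1, a repressor of granulocyte and stem cell programmes, read 6.65% ± 0.74 and 2.54% ± 1.1 (adjusted p = 0.00078), below the minimum difference. Runx1, the master factor of definitive blood formation, held 28.6% ± 1.8 and 30.6% ± 1.8 over 247 CpGs (adjusted p = 0.309), and Ikzf1, the zinc finger factor Ikaros, 8.67% ± 2.2 and 8.03% ± 2.2 (adjusted p = 0.802). In Myb, which keeps progenitors dividing, 1.99% ± 0.30 and 4.06% ± 0.68 passed the adjusted p (0.000291) at 2.07 points.

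Of the 10 signalling and cytoskeletal genes with a tested gene body, 4 rose. Dok2, an adaptor that dampens cytokine and receptor signals, read 31.0%, 34.4%, 26.6%, 28.3% and 33% in Con-d0 and 60.8%, 65.8%, 56.6%, 55.6% and 65.7% in Con-d21 (log2 difference 1.82 ± 0.18 SE, adjusted p = 6.47e-08). Ptpn6, the phosphatase SHP-1, read 66.6%, 60.1%, 64.3%, 62.2% and 60.5% against 86.0%, 84.2%, 90.6%, 86.1% and 89.1% (log2 difference 2.01 ± 0.19 SE, adjusted p = 4.88e-08). The ages did not overlap in Dok2 or Ptpn6. Part of Ptpn6 is shared with the model Gm20531.

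Vav1 read 61.0%, 67.5%, 67.0%, 61.2% and 67.8% in Con-d0 and 77.9%, 80.8%, 83.5%, 84.5% and 82.8% in Con-d21 (log2 difference 1.29 ± 0.20 SE, adjusted p = 1.25e-05). Inpp5d, the phosphatase SHIP1, read 61.4%, 66.4%, 61.2%, 64.8% and 65.5% against 77.5%, 78.4%, 83.9%, 81.7% and 78.3% (log2 difference 1.18 ± 0.15 SE, adjusted p = 2.35e-06). Neither gene's ages overlapped. The actin regulator Coro1a (6.57% to 16.3%), the adaptors Lat2 (77.7% to 86.7%) and Dok3 (66.5% to 75%) and the actin bundler Lcp1 (76.5% to 83.4%) passed the adjusted p with differences of 6.88 to 9.77 points. Hcls1, a cortactin relative, held 80.5% and 85.3%, and the adaptor Lcp2 70.8% and 72.2%, and neither passed the adjusted p.

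Of the receptors and adhesion genes, 5 had a tested gene body and 1 was called. It was Itgb2, the common chain of the leukocyte β2 integrins, with 73.5% ± 2.0 in Con-d0 and 87.5% ± 2.2 in Con-d21 (log2 difference 1.33 ± 0.19 SE, adjusted p = 6.25e-06). Its partner chain Itgam (CD11b) had 73.8% ± 2.6 and 83.8% ± 4.8, a difference of 9.98 points that missed the minimum narrowly. Fermt3, the integrin activator kindlin-3, held 81.9% and 90.6%, and Laptm5, a lysosomal protein that lowers receptor levels, 64.8% and 72.5%. Csf3r was near its ceiling at either age, with 85.4% ± 6.8 and 88.3% ± 2.5 (adjusted p = 0.448), although its promoter rose.

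**Figure D2:**
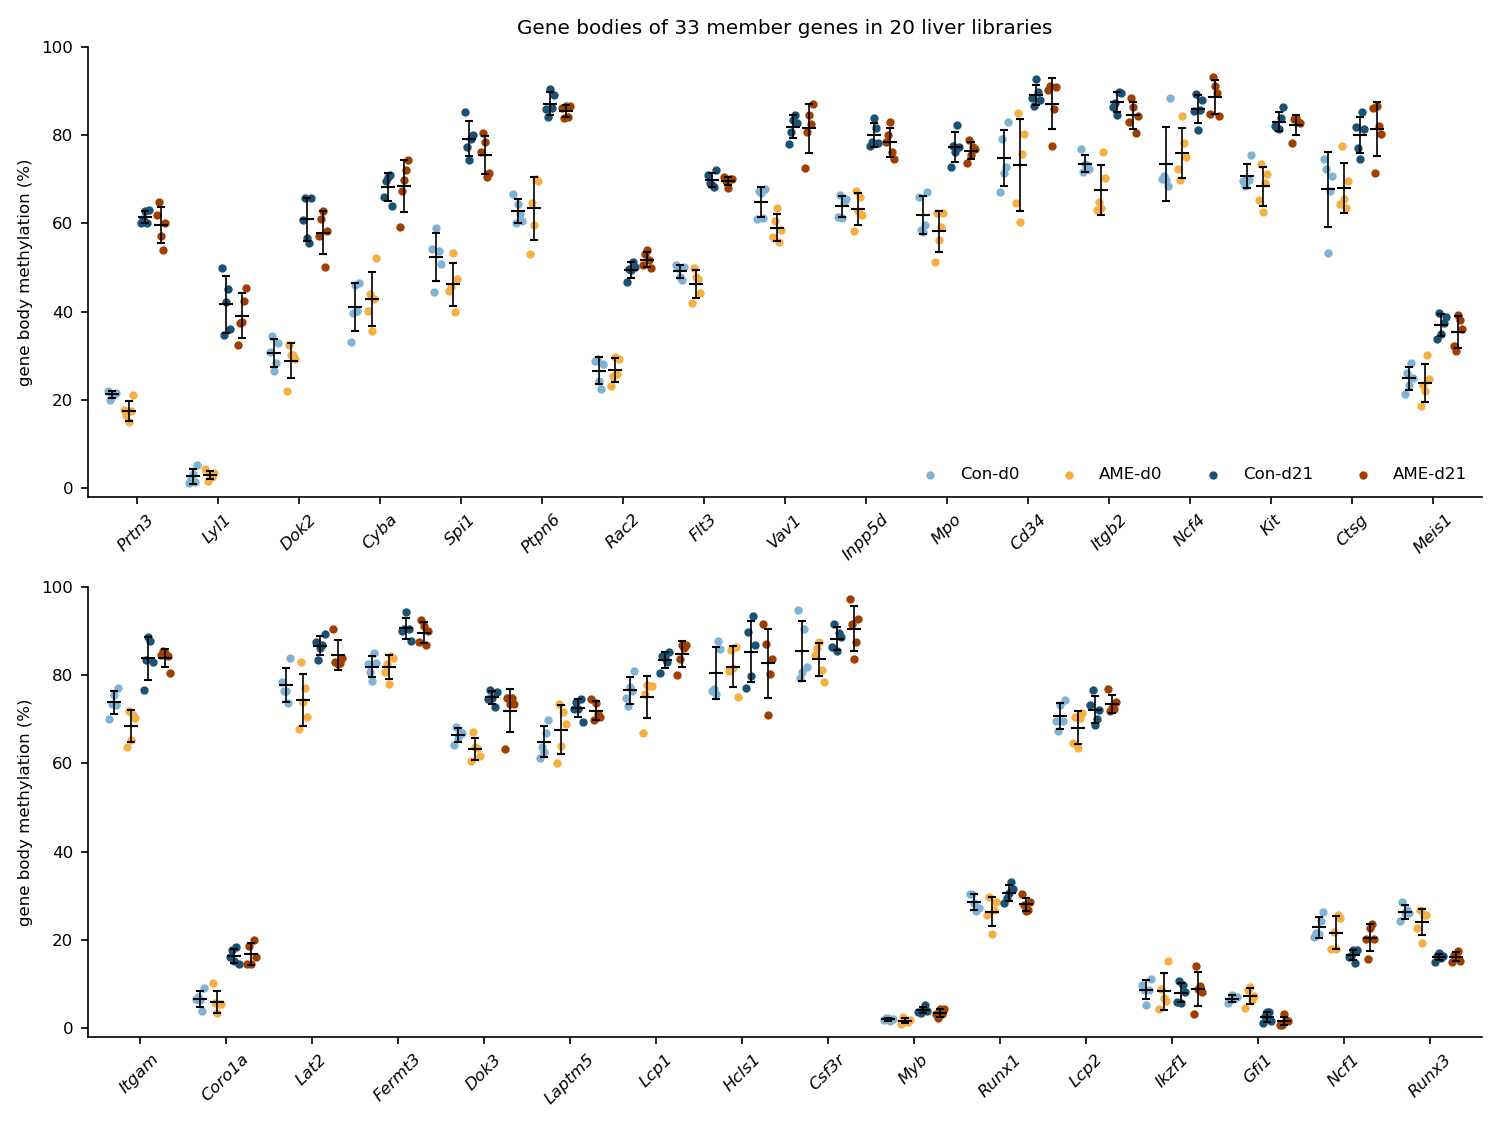
Gene body methylation (y axis, percent of reads) of the 33 members tested, in order of the difference between Con-d21 and Con-d0 over both panels. Points are single livers and bars the mean ± SD of 5; the upper panel holds the 17 genes called higher in the controls, and Runx3, the last of the lower panel, is the 1 called lower.

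Upstream regions were measured in 15 members. In the controls 7 were called higher at d21 (46.7%, against 28.6% of 4133 over all genes) and 1 lower (6.67%, against 4.48%), and the median Δme was 7.53 points over the members and 5.39 points over all upstream regions. That of Elane, neutrophil elastase, went from 23.3% ± 0.79 to 62.0% ± 1.0 (adjusted p = 2.57e-10), and 18 of its 21 CpGs are those of the Prtn3 gene body. Laptm5 read 55.7%, 52.5%, 51.8%, 51.3% and 51.4% in Con-d0 and 85.5%, 84.6%, 86.1%, 86.7% and 77.1% in Con-d21 (adjusted p = 1.31e-07), so that the region before this gene changed by 31.5 points and its body by 7.66. Ncf1 went from 5.96% ± 1.9 to 32.3% ± 3.7 upstream (adjusted p = 6.67e-09), opposite in sign to its gene body in the controls. In AME the upstream region of Ncf1 rose by 23.9 points, while its gene body differed by -1.16 points (limma adjusted p = 0.592).

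The other upstream regions called higher were those of Spi1 (4.59% to 16.4%), Cyba (82.1% to 93.4%), Itgam (68.5% to 78.9%) and Dok3 (83.7% to 93.9%). Those of Itgam (10.4 points) and Dok3 (10.1 points) were close to the minimum. The call for Itgam ended without Con-d0 replicate 1 or 4 or Con-d21 replicate 4 (9.46 to 9.55 points), and that for Dok3 without Con-d0 replicate 2 or 4 or Con-d21 replicate 3 or 5 (8.94 to 9.68 points). With an unweighted mean over CpGs the difference was 7.52 points for Itgam, 9.33 for Dok3 and 9.61 for Spi1, none of them called. The upstream region of Cd48 was called lower: its 13 CpGs read 83.9%, 79.2%, 80.7%, 78.4% and 82.9% in Con-d0 and 68.2%, 64.7%, 71.0%, 69.0% and 64.7% in Con-d21 (Δme -13.5 points, adjusted p = 0.000742). Promoter and upstream region of Cd48 thus moved in opposite directions. Fcer1g, the signalling chain of Fc receptors, held 68.3% ± 10.1 and 60.1% ± 4.7 (adjusted p = 0.0679). Hcls1 (86.7% to 93.9%) passed the adjusted p at 7.21 points, whereas Ncf4 (61.1%, 68.6%) and Runx3 (76.5%, 83.5%) did not pass, and Vav1, Meis1 and Ptpn6 were under 1% there in every group mean.

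Single CpGs were called with a quasi-binomial test at an unadjusted p under 0.001 and a Δme of at least 10 points, the thresholds that the methods of the study give for a differentially methylated cytosine (DMC). Of the 1690 member CpGs, 153 were called higher (9.05%) and 71 lower (4.2%) in Con-d21 than in Con-d0. Over all 906622 CpGs, 2.51% were called higher and 0.74% lower. In promoters 39 of 455 member CpGs were called, all higher, whereas in gene bodies 105 of 1098 were higher and 70 lower. The shares called over all genes were not computed for promoters and gene bodies apart, so this split is not shown to be particular to the members. The lower CpGs lay mostly in 3 regulators: 36 in Runx3, 22 in Runx1 and 8 in Gfi1.

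Many called CpGs of the members lay close to one another. When runs of at least 3 CpGs called in the same direction and no more than 200 bp apart were joined, a description made after the calls were known, 27 clusters in 19 genes held 190 of the called CpGs. How often the called CpGs of other genes form such clusters was not computed, and RRBS itself reads CpGs that lie close together. There were 20 clusters that rose, in 15 genes, and 7 that fell, in Runx1, Runx3, Gfi1 and Lcp2. All CpGs measured within a cluster were then counted. Of the 157 CpGs in rising clusters, 82 lay in introns, 55 in coding exons, 11 in untranslated exons and 9 before a TSS, the CpGs that Prtn3 shares with the upstream region of Elane being counted in Prtn3. Of the 70 in falling clusters, 51 lay in coding exons and 19 in introns.

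In Runx1, 20 CpGs of a coding exon 220042 bp after the TSS (chr16:92605946-92606107) were 52.2% methylated in Con-d0 (range 44.1% to 64.5%) and 13.2% in Con-d21 (6.75% to 21.8%), all 20 called. Near the TSS of the same gene, CpGs 1025 and 1060 bp after it rose, from 25.4% to 67.5% and from 35.2% to 79.1%. The mean over the Runx1 gene body, which did not pass the test, thus joined CpGs that fell and CpGs that rose. Runx3 had 4 falling clusters, of which the largest (chr4:135155332-135155590, 16 CpGs in a coding exon and the intron beside it) went from 47.7% (38.0% to 52.5%) to 7.06% (4.2% to 11.5%). Another of 13 CpGs in a coding exon (chr4:135175637-135175780) went from 53.2% to 12.3%. In Gfi1, 11 CpGs 4830 to 4942 bp after the TSS (chr5:107721094-107721206) went from 40% (31.0% to 53.7%) to 8.33% (3.46% to 13.0%), while its promoter was near 0 at either age. Lcp2 had 3 intronic CpGs at 69.1% in Con-d0 and 38.4% in Con-d21.

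**Figure D3:**
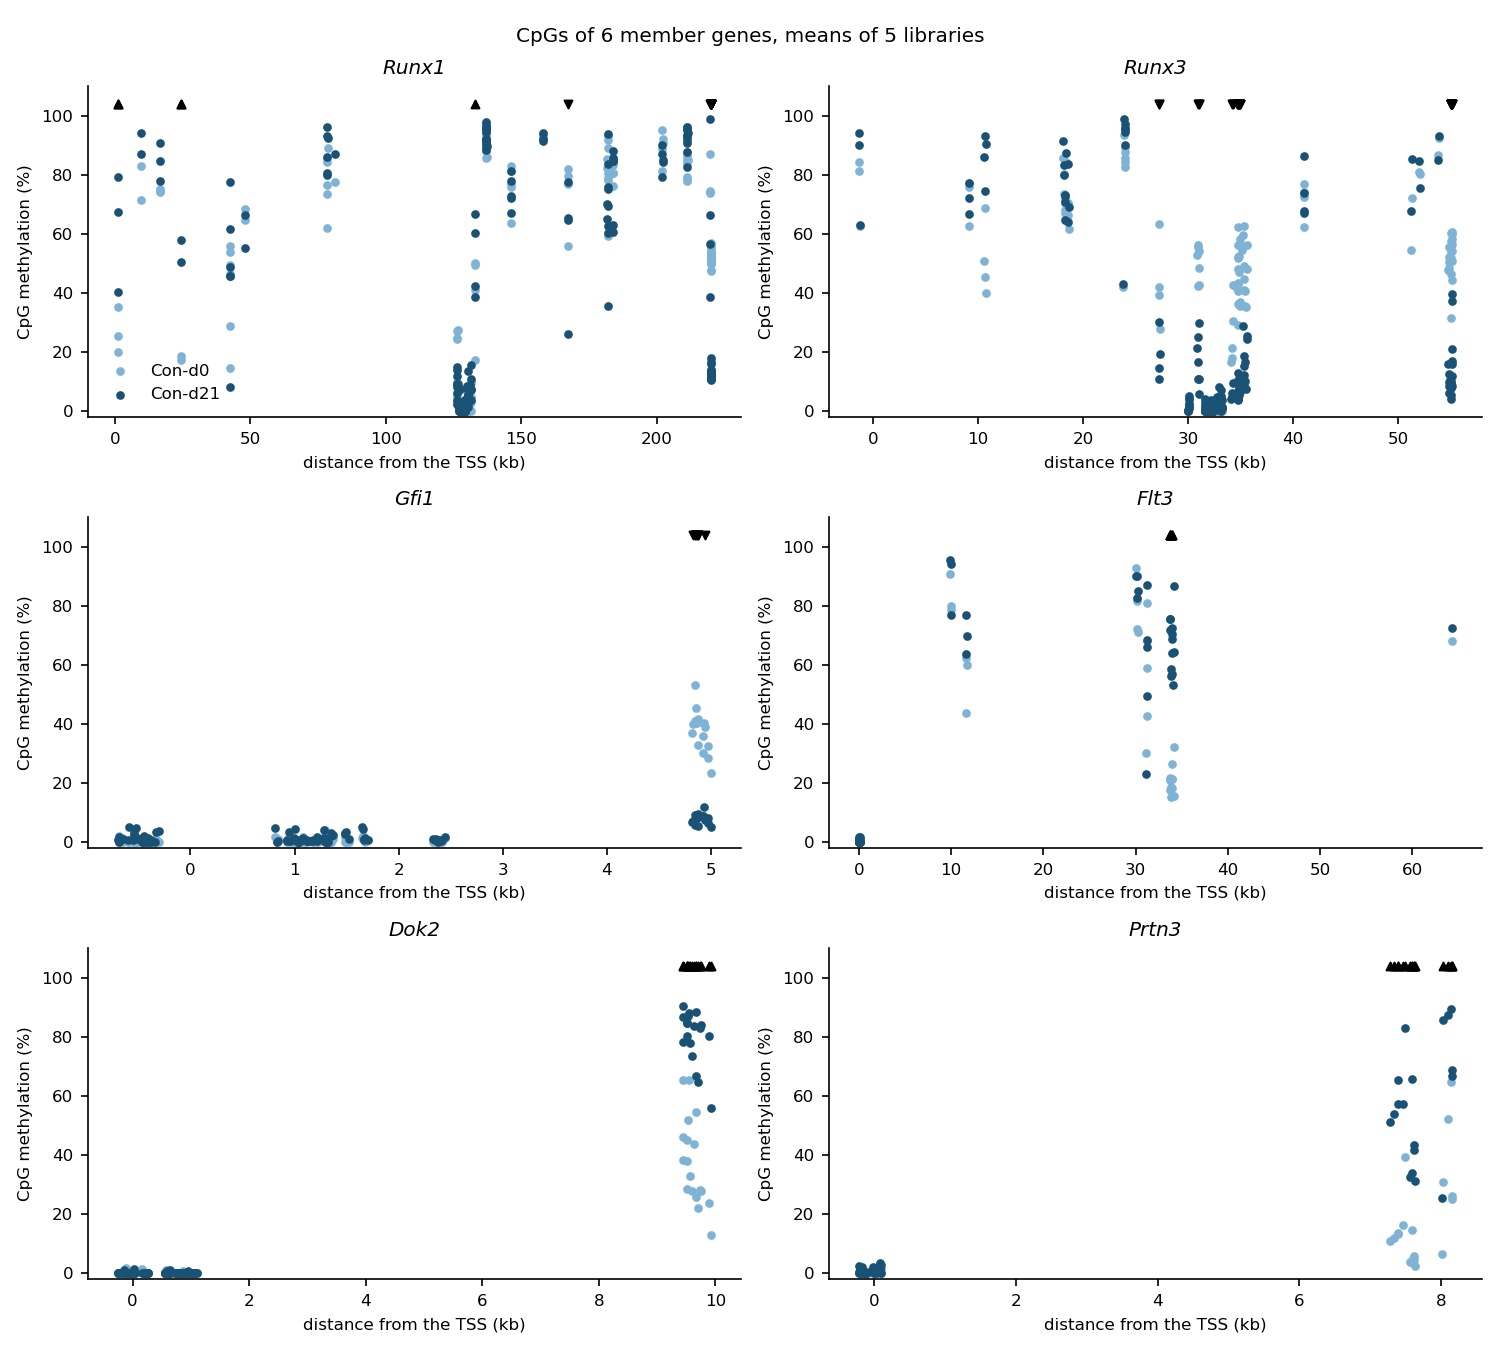
Methylation of every measured CpG (y axis, mean percent of 5 livers) against its distance from the TSS in kb (x axis) for 6 members, in Con-d0 (light) and Con-d21 (dark). Triangles at the top mark CpGs called higher (pointing up) or lower (pointing down) in Con-d21. In Gfi1, Flt3, Dok2 and Prtn3 the called CpGs sit together away from the start of the gene record, where the CpGs stay near 0. With every annotated TSS, the Prtn3 promoter was called.

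Rising clusters were found at the TSS and far from it. At the TSS, 7 CpGs of Vav1 went from 14.8% to 40.1%, 5 of Lyl1 from 1.41% to 31.2%, 4 of Csf3r just before it from 21.6% to 56.7%, and 27 of Cyba, 60 to 398 bp after it, from 0.633% to 19.3%. Within genes, the intronic cluster of Flt3 33708 bp after the TSS (chr5:147366555-147366781, the region of the sequence above) went from 19.6% to 65.0% over 7 CpGs. In Ptpn6, 4 CpGs (chr6:124732693-124732807) went from 26.5% to 82.2%, the largest difference of the clusters. In Dok2, 17 CpGs from 9444 to 9930 bp after the TSS went from 39.1% to 80.7%, and the Prtn3 clusters went from 12.1% to 52.6% and from 41.3% to 80.7%. Coro1a, whose gene body was not called, had 6 CpGs that went from 39.7% to 79.9%, and Meis1 had 15 that went from 0.537% to 15.7%. Called CpGs outside clusters included a pair in Fermt3, 1367 and 1489 bp after the TSS, which went from 17.1% to 60.4% and from 17.7% to 64.5%.

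**Figure D4:**
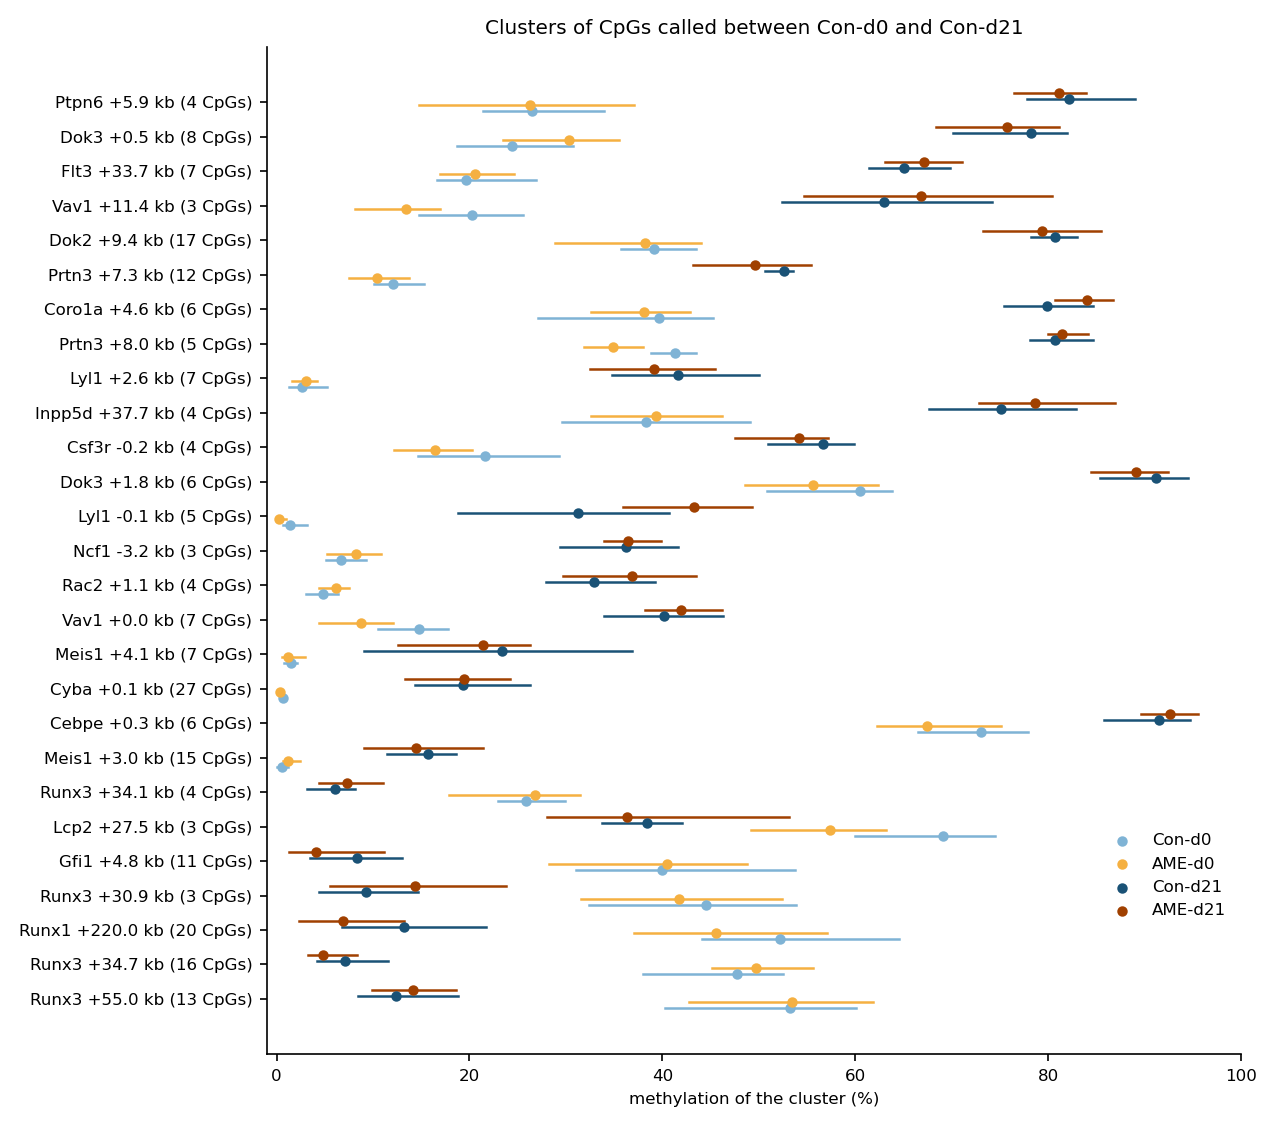
Methylation (x axis, percent of reads) of the 27 clusters of CpGs called between Con-d0 and Con-d21, each named by its gene, the distance of its first CpG from the TSS and its number of CpGs. Points are means and lines the range of 5 livers in each of the 4 groups; the clusters were chosen by the difference in the controls, which is therefore no finding, and the AME livers are shown beside them.

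The age comparison was repeated in the AME livers, which share no library with the controls. Promoters were called higher in 8 of 18 members (44.4%, against 4.67% of all promoters) and lower in none (0.88% of all). They were the 7 of the controls and Ncf4, which read 52.2%, 59.1%, 52.4%, 43.8% and 41.2% in AME-d0 and 73.8%, 76.5%, 71.1%, 82.8% and 72.2% in AME-d21 (log2 difference 1.57 ± 0.31 SE, adjusted p = 0.000741). Of the members with a promoter ratio under 0.6, 72.7% were called higher, where 9.8% of such promoters over all genes were, and at or above 0.6 none was called, where 0.484% were. The count was 8 also without AME-d0 replicates 1 and 3, and without AME-d21 replicate 4.

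Dok3 rose from 23.5%, 30.0%, 32.0%, 30.6% and 35.5% in AME-d0 to 71.9%, 78.5%, 81.2%, 78.8% and 68.4% in AME-d21, by 45.4 points (adjusted p = 8.38e-08). Lyl1 went from 0%, 0%, 0.342%, 0.291% and 0% to 26.7%, 37.2%, 31.5%, 30.5% and 39.0%, by 32.9 points (adjusted p = 4.95e-13), and Vav1 from 7.75% ± 2.9 to 38.5% ± 2.7 (adjusted p = 7.6e-08). The promoters of Cd48 (30.3% ± 6.2 to 68.6% ± 7.8), Csf3r (15.5% ± 2.8 to 50.5% ± 3.8), Cebpe (64.9% ± 2.55 to 88.5% ± 2.1) and Cyba (0.343% ± 0.17 to 18.8% ± 3.9) rose as well. No promoter called in the controls failed to be called in AME.

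Gene bodies were called higher in 20 of 33 members in AME (60.6%, against 36.4% of all gene bodies) and lower in 0 (2.52% of all). They were the 17 of the controls with Itgam (68.5% ± 3.7 to 83.9% ± 2.0), Coro1a (5.99% ± 2.5 to 16.7% ± 2.5) and Lat2 (74.4% ± 5.9 to 84.5% ± 3.4). Runx3 fell from 24.0% ± 3.0 to 16.2% ± 1.0, by 7.84 points (adjusted p = 2.5e-05), below the minimum difference. Without AME-d0 replicates 1 and 3 the count was 17, Cd34 (6.85 points), Lat2 (7.63) and Meis1 (9.24) losing the call, and without AME-d21 replicate 4 it was 19, Coro1a losing it at 9.90 points. Upstream regions were called higher in 6 of 15 (40%, against 35.3% of all) and lower in 1 (6.67%, against 4.16%). The 1 lower was Fcer1g, from 68.6% ± 3.5 to 57.7% ± 3.5 (adjusted p = 0.027), and not Cd48, whose Δme was -7.46 points. Without AME-d0 replicates 1 and 3 5 were called higher: Cyba (9.12 points, against 14.02 with them) and Spi1 (9.69 points) lost the call and Runx3 (10.2 points) gained it. Leaving out AME-d0 replicate 2 or 5 or AME-d21 replicate 3 ended the Fcer1g call (-9.53 to -10.3 points). The upstream calls of Itgam in AME ended without AME-d21 replicate 1 or 3 (9.59 and 9.68 points) and that of Spi1 without AME-d21 replicate 5 (9.89 points), while the Lat2 gene body lost its call without any 1 of AME-d0 replicates 1, 3 and 5 and AME-d21 replicate 1 (8.39 to 9.92 points).

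Among single CpGs, 164 were called higher (9.7%, against 2.59% of all CpGs) and 72 lower (4.26%, against 0.562%) in AME-d21 than in AME-d0. Of the CpGs called higher, 124 were shared with the controls, which is 81% of the control calls and 75.6% of the AME calls, and of those called lower 61 were shared (85.9% and 84.7%). No member CpG was called in opposite directions. The shares of calls common to both comparisons were not computed over all CpGs, so they are not shown to be particular to the members. Without AME-d0 replicates 1 and 3, 127 member CpGs were called in place of 236, and the count over all CpGs is not given here. In the falling clusters, the AME means went from 45.5% to 6.90% in Runx1, from 49.7% to 4.80% in the largest cluster of Runx3 and from 40.5% to 4.12% in Gfi1. In the Lcp2 cluster, at 57.3% and 36.3%, the AME ages overlapped and none of its 3 CpGs was called.

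**Figure D5:**
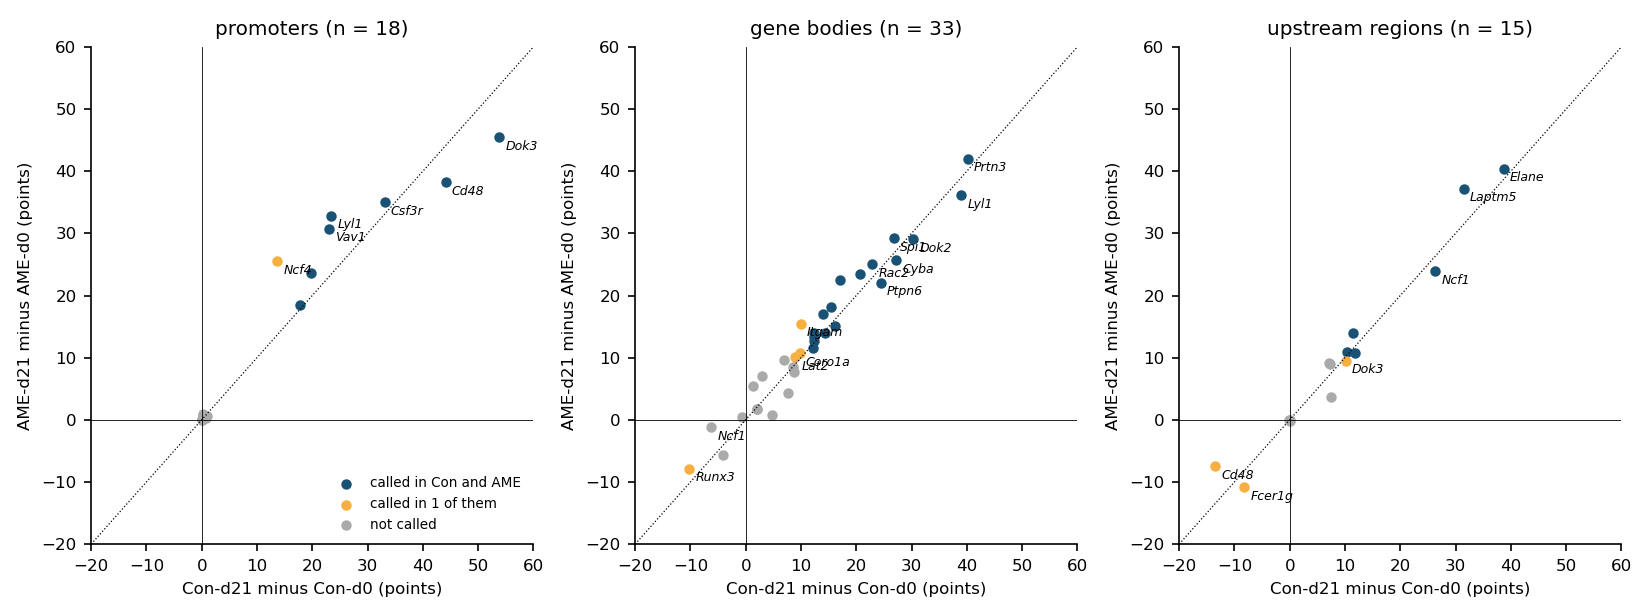
Difference in methylation between d21 and d0 in AME (y axis, points) against that in the controls (x axis, points) for each member with a tested promoter, gene body or upstream region. The dotted line marks equal differences; most points lie near it, and genes called in 1 of the comparisons, such as Ncf4, Runx3 and Cd48, are named with those of large difference.

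AME and Con livers of the same age were compared to ask whether the maternal environment moved these genes. With limma, no member was called at d0 or at d21 in a promoter, a gene body or an upstream region, and over all genes 0% of promoters, gene bodies and upstream regions were called in either comparison. At an unadjusted p under 0.05, 3 of the 18 member promoters, 2 of the 33 gene bodies and 1 of the 15 upstream regions differed at d0, where 680 of 12387, 1003 of 12247 and 255 of 4133 did over all genes. At d21 they were 1, 1 and 0, where 650, 552 and 224 differed over all genes. Of single CpGs, the quasi-binomial test called 0 members at d0, where 0.000551% of all CpGs were called, and 0 at d21, where 0.000221% were; with limma at the same thresholds 1 member CpG was called at d0 and 2 at d21. At an unadjusted p under 0.05 the quasi-binomial test gave 28 and 33 of the 1690 member CpGs, and 15261 and 13448 of the 906622 CpGs over all. The counts over all CpGs lie below what this threshold passes by chance. The 0 calls of this test thus do not show that the CpGs of AME and Con livers are alike. By its own method, the study reported differentially methylated regions between AME and Con at d0 and at d21. The d0 livers of Con and AME did not overlap in 2 member promoters, those of Lyl1 and Cyba, where 0.807% of promoters over all genes did not. They overlapped in every member gene body and upstream region (1.32% and 0.895% did not over all genes), and the d21 livers did in every member promoter, gene body and upstream region (0.694%, 0.759% and 0.629% did not over all genes).

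The promoters with the largest differences at d0 were Ncf4, Vav1 and Dok3. Ncf4 was 10.9 points lower in AME-d0 (adjusted p = 0.905), with 45%, 58.9%, 71.1%, 66.2% and 61.8% in Con-d0. Vav1 read 9.43%, 10.7%, 5.35%, 4% and 9.23% in AME-d0, 6.29 points below Con-d0, of which only replicate 1, at 9.75%, lay in that range (adjusted p = 0.603). Dok3 was 5.90 points higher in AME-d0 (adjusted p = 0.925). Without AME-d0 replicates 1 and 3 the differences were -12.6 points for Ncf4, -6.06 for Vav1 and 7.61 for Dok3, and none passed the test with or without them.

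The Lyl1 promoter differed at a lower level. Every AME-d0 liver, at 0% to 0.342%, was below every Con-d0 liver, at 0.697% to 1.91%, and the limma adjusted p was 0.0451, but the Δme of -1.16 points was far below the minimum. Since 3 AME-d0 livers had no methylated read there, the log2 difference of -1.91 depends on the read added to each count. The adjusted p was 0.081 without AME-d0 replicates 1 and 3, and over all alternatives it ran from 0.0214, with a smaller addition, to 1, with an unweighted mean over CpGs. Cyba held 0.123% to 0.475% in AME-d0 and 0.484% to 0.854% in Con-d0. At d21 the Lyl1 promoter was 8.28 points higher in AME (adjusted p = 0.984), and 8.91 points without AME-d21 replicate 4 (adjusted p = 0.888). The age difference of Lyl1 was 9.44 points larger in AME than in Con (log2 difference 2.51 ± 0.44 SE, adjusted p = 0.086), which was not called, and the adjusted p was 0.137 without AME-d0 replicates 1 and 3 and 0.212 without AME-d21 replicate 4.

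In gene bodies the largest differences at d0 were those of Spi1 (-6.18 points, adjusted p = 0.622), Itgb2 (-5.95 points, adjusted p = 0.602) and Vav1 (-5.79 points, adjusted p = 0.621). Without AME-d0 replicates 1 and 3 they were -8.03, -3.04 and -6.61 points. At d21 the largest were Ncf1 (3.90 points), Spi1 (-3.79 points) and Dok3 (-3.06 points), and of the promoters Lyl1 was followed by Cd48 (-2.78 points) and Csf3r (-2.51 points). Without AME-d21 replicate 4 the values were 3.12 points for Ncf1, -2.59 for Spi1, -3.77 for Dok3, -4.85 for Cd48 and -1.05 for Csf3r. For the difference between the age changes of AME and Con, limma called 0 member promoters and 0 member gene bodies, and 0% over all genes for either. At an unadjusted p under 0.05 there were 2 member promoters and 1 gene body, and 639 promoters and 766 gene bodies over all genes.

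Genes that mark other cells of the liver were read in the same fit for the control ages. Over all genes, 3.83% of promoters were called higher and 1.05% lower at d21, and 25.9% of gene bodies higher and 3.1% lower. Of other myeloid and progenitor genes, 4 of 25 promoters were called higher and none lower, and of the gene bodies 6 of 28 were higher and 2 lower. Their median Δme was 0.71 points in promoters (0.02 over all genes) and 5.65 points in gene bodies (6.28 over all genes). Promoters of the erythroid list were higher in 3 of 6, of platelets and megakaryocytes in 4 of 5, of B and T cells in 3 of 4, of Kupffer cells in 1 of 2, of the endothelium in 2 of 3 and of stellate cells in 1 of 6, with none lower. Cholangiocyte genes had 0 of 3 called and housekeeping genes 0 of 9. The hepatocyte list went the other way: all 3 of its tested promoters were lower at d21, with a median Δme of -37.9 points. Gene bodies called higher were 1 of 7 for the erythroid list, 1 of 6 for platelets, 4 of 7 for B and T cells, 1 of 5 for Kupffer cells, 3 of 10 for the endothelium, 3 of 7 for stellate cells, 1 of 7 for cholangiocytes (2 lower), 2 of 9 for housekeeping genes and 0 of 8 for hepatocytes (3 lower). What these cells contribute to the changes of the myeloid genes was not tested.

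The promoter sequences of RefSeq (GRCm38, from 250 bases before to 50 after a start) were searched on both strands for the core letters GAGGAA of PU.1 sites and TGTGGT of RUNX sites. Of the members, 33 were found among them, with 43 promoters. GAGGAA was in 17 of the 43 (39.5%), where 28.3% of 32851 promoters hold it, and TGTGGT in 9 (20.9%), where 16.8% do. Such a match is a run of letters and not a site.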

How the data were processed

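RRBS was performed by the authors on liver DNA of 20 offspring labelled male, 5 for each maternal environment and age, grouped and numbered as the labels give them. For each CpG the deposited files give raw counts (methylated reads, unmethylated reads and their total) and, as the authors computed it, the percent methylated. Bismark, BWA, Trim Galore and FastQC are listed in the submitters' processing notes with the mm10 build and no versions. Deduplication and the merging of strands are not given in the sources used here. PCR reads are not independent molecules, and the depth limits the precision of each value.

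CpGs with at least 10 reads in at least 3 libraries of each of the 4 groups were kept, and genes were taken from GENCODE M21 (GRCm38). The TSS was the 5′ end of the gene record, and a library with fewer than 10 reads in a region gave no value there. Regions were fitted with limma 3.58.1 (R 4.3.3) on log2((methylated + 1)/(unmethylated + 1)), with 4 group means over the 20 libraries. CpGs were tested with a quasi-binomial F test between 2 groups, its overdispersion floored at 1, at an unadjusted p, since the sources used here do not say whether the p of the study was adjusted. Python 3.11.15, numpy 2.4.6, scipy 1.17.1, pandas 2.3.3, pysam 0.24.0 and matplotlib 3.10.9 were used. Both tests were checked on simulated data, in which many of the smaller planted changes were not called. An absence of calls therefore does not exclude such changes.

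The members, the role groups, the lists for other cell types and the tests were chosen with earlier results of these data known. Livers are given one by one for called promoters and the 10 called gene bodies with the largest control difference; where no member was called between AME and Con, the 3 largest differences are given. The members given in full beyond that rule (Runx3 gene body, Laptm5 and Cd48 upstream) and the CpG clusters were chosen after their values were seen. Alternatives were other coverage minimums, CpG minimums, windows and starts, an unweighted mean, a smaller addition, fits of 2 groups, the replicate number as a block, limma per CpG, and libraries left out. Same-numbered libraries did not deviate together (correlations from -0.0821 to 0.0474 over the 3 kinds of region).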

Additional observations from a re-analysis of the deposited data

Results flagged for a closer look

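Single livers far from the other 4 of their group were sought with Dixon's test at the 95% level in 264 groups of member values, of which 16 passed, where chance alone passes about 1 in 20. In promoters near 0 these were AME-d0 replicate 3 of Cd34 (1.59%, others 0% to 0.455%), Con-d21 replicate 2 of Cd34 (1.10%), Con-d0 replicate 3 of Dok2 (0.202%), Con-d21 replicate 5 of Dok2 (0.226%) and AME-d21 replicate 5 of Kit (0.996%). In the upstream region of Ptpn6 they were Con-d0 replicate 4 (0.159%) and Con-d21 replicate 3 (0.198%), with the others at 0%.

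In gene bodies, Ncf4 of Con-d0 replicate 5 was 88.5% methylated (others 68.4% to 70.7%), Kit of Con-d0 replicate 5 was 75.5% (68.6% to 69.9%) and Lcp1 of AME-d0 replicate 1, a library with low methylation over all autosomes, was 66.8% (75.7% to 77.7%). AME-d21 replicate 1 stood apart in 3 genes, being low in Dok3 (63.2%, others 73.3% to 74.7%) and Kit (78.3%, others 82.8% to 83.8%) and high in Lat2 (90.5%, others 82.6% to 83.9%). Itgam of AME-d21 replicate 5 was 80.5% (84.4% to 85.4%). The upstream region of Laptm5 was 55.7% in Con-d0 replicate 1 (51.3% to 52.5%) and 77.1% in Con-d21 replicate 5 (84.6% to 86.7%).

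Of 12 groups of library measures 2 passed, both for AME-d21 replicate 4: 2.86 X reads for every 100 autosomal reads (the other AME-d21 livers 1.52 to 1.53) and 16.2 reads on the Y short arm of every 1000000 (189 to 214).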

How the results depend on the processing

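Over 68 called members of a region and comparison, 1359 values were recomputed under the alternatives. Of these, 1321 remained called, 38 kept the direction but lost the call and none reversed. In all, 16 called members lost the call under at least 1 alternative, 9 of them when 1 library was left out. The setting without a minimum difference could end no call, so the 1321 include values that could not lose it. Leaving out AME-d0 replicates 1 and 3 did not change the differences of the controls. With 1 library left out, the controls had 7 to 8 member promoters, 17 to 21 gene bodies, 7 to 8 upstream regions and 170 to 185 CpGs called, and AME had 8, 19 to 21, 5 to 8 and 181 to 192, with 0 in every comparison of AME with Con. Without a minimum difference, 11 of 18 promoters and 28 of 33 gene bodies were called in the controls, and 11 of 15 upstream regions in AME. Over all genes, 1706 of 12387 promoters were higher and 430 lower, and 7443 of 12247 gene bodies were higher and 652 lower. In AME, 2369 of 4133 upstream regions were higher and 247 lower over all genes. Between AME-d0 and Con-d0, 1 promoter (Lyl1) was called, the only 1 over all genes. With every annotated TSS, 11 of 23 promoters were called, Prtn3 among them at 41.9 points. The unweighted mean called 5 upstream regions in the controls, where 1141 of 4133 were higher and 177 lower over all genes. A coverage minimum of 20 reads called 4 in AME. For CpGs in AME, 20 reads gave 146 and leaving out AME-d0 replicates 1 and 3 gave 127. With limma per CpG, 367 were called in the controls, 374 in AME, 1 between AME-d0 and Con-d0 and 2 between AME-d21 and Con-d21. The cause of these moves was not tested. Where no count over all genes stands beside a member count, it says nothing on how the members compare with other genes. At 5 reads, Mpo lost its gene body call (6.78 points), while Ptprc (38.5 points in its gene body) and the Itgb2 promoter (43.6 points) could be tested and were called; the unweighted mean ended the Spi1 gene body call in AME (15.6 points, adjusted p = 0.231 with limma).

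The replicate number as a block gave 7 promoters, 18 gene bodies and 8 upstream regions called in the controls and 8, 20 and 7 in AME, as without it, and 358, 361, 0 and 3 CpGs per limma fit in the order of comparisons above. The numbers did not pair the libraries, which shared no animal. The difference between the age changes was not run in fits of 2 groups, and each CpG was tested between its 2 groups alone, so leaving out AME-d0 libraries could not touch the controls.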
